A study of Mus musculus with 6 samples.

Results

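A set of 10 genes that define white adipocytes was followed in injured Achilles tendon tissue of mice. The set holds *Adipoq*, *Lep*, *Cfd* and *Retn*, which encode secreted factors, *Plin1* and *Cidec*, which encode lipid droplet proteins, *Lpl* and *Fabp4*, which handle fatty acids, the transcription factor gene *Pparg*, and *Car3*, which encodes a carbonic anhydrase. The genes were taken by name as textbook adipocyte genes, and all 10 were present among the 18099 genes measured. They and the further gene lists below were chosen with earlier results of these data known. Counts of such genes set beside shares over all genes are therefore descriptions only. The *Ampkα1fl/fl* group held 3 littermate mice with floxed alleles of the gene for the AMPKα1 subunit (*Prkaa1*), and the *LysM-Cre; Ampkα1fl/fl* group held 3 mice that carried the same floxed alleles and the *LysM-Cre* transgene. All 6 mice were neonatal, underwent transection of the Achilles tendon and were sampled 7 days after injury. *LysM-Cre* expresses the recombinase from the lysozyme M locus (*Lyz2*), which is active in macrophages and other myeloid cells, so that the deletion is not directed at adipocytes, and mice with *LysM-Cre* but no floxed allele were not analysed here. The question addressed was whether the adipocyte genes of the healing tendon differed between mice with and without the myeloid deletion.

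White adipocytes store triglyceride in a single large droplet and release it as fatty acids when energy is needed. PPARγ, acting with C/EBP factors, switches on the genes of lipid uptake, storage and hormone secretion as progenitor fibroblasts become adipocytes. In tendons, fat cells are found in the loose connective tissue around the tendon and at its insertion, and fat can also build up in a tendon after injury.

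Each library held between 18076805 and 19479887 reads, and expression is given as CPM, read counts scaled to library size and composition. Tendon genes were present at high levels, with *Tnmd* at 1674 ± 161 CPM (SD, n = 3) in *Ampkα1fl/fl* mice and 1897 ± 205 CPM in *LysM-Cre; Ampkα1fl/fl* mice. The targeted gene *Prkaa1* had 38.2 ± 0.842 CPM and 36.2 ± 4.07 CPM, a log2 fold change of -0.08 (edgeR adjusted p = 0.744). The deletion is directed at myeloid cells only, and which cells these reads came from was not tested. *Lyz2*, into which *Cre* was inserted, had 406 ± 17.4 CPM and 0.571 ± 0.209 CPM, with between 8 and 15 reads in each *LysM-Cre; Ampkα1fl/fl* library (edgeR adjusted p = 3e-06). The groups thus differed in *Lyz2* expression as well as in the targeted deletion. Every log2 fold change below is *LysM-Cre; Ampkα1fl/fl* over *Ampkα1fl/fl* with its standard error (SE), and a gene is called when the edgeR p adjusted over 14261 tested genes is under 0.05. In tissue RNA, fewer adipocytes and less RNA per adipocyte cannot be told apart.

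None of the 10 adipocyte genes was called, although 9 of the 10 had a log2 fold change below 0, as had 50.6% of all genes tested. The edgeR test called 0 of 10 members, against 0.898% of all genes tested (0.568% lower). At an unadjusted p under 0.05 it found 4 members, *Lep*, *Plin1*, *Pparg* and *Lpl*, all lower, against 8.55% of all genes being lower and 5.97% higher at that level. DESeq2 called 3 of them, *Lep*, *Pparg* and *Lpl*, where it called 4.82% of all genes (2.67% lower). The same 4 genes were those in which every *LysM-Cre; Ampkα1fl/fl* library lay below every *Ampkα1fl/fl* library, a separation shown in that direction by 11.4% of all genes and in the other by 8.94% of all genes and 0 members. The median log2 fold change of the members was -0.71, beside -0.002 over all genes. In the fit that paired mice by number (the replicate block, under which 0.33% of all genes were called), 0 members were called and 6 were lower at an unadjusted p under 0.05, against 8.31% of all genes. The labels share replicate numbers but do not state that same-numbered mice were matched. Paired values here and below are therefore alternatives only.

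**Figure D1:**
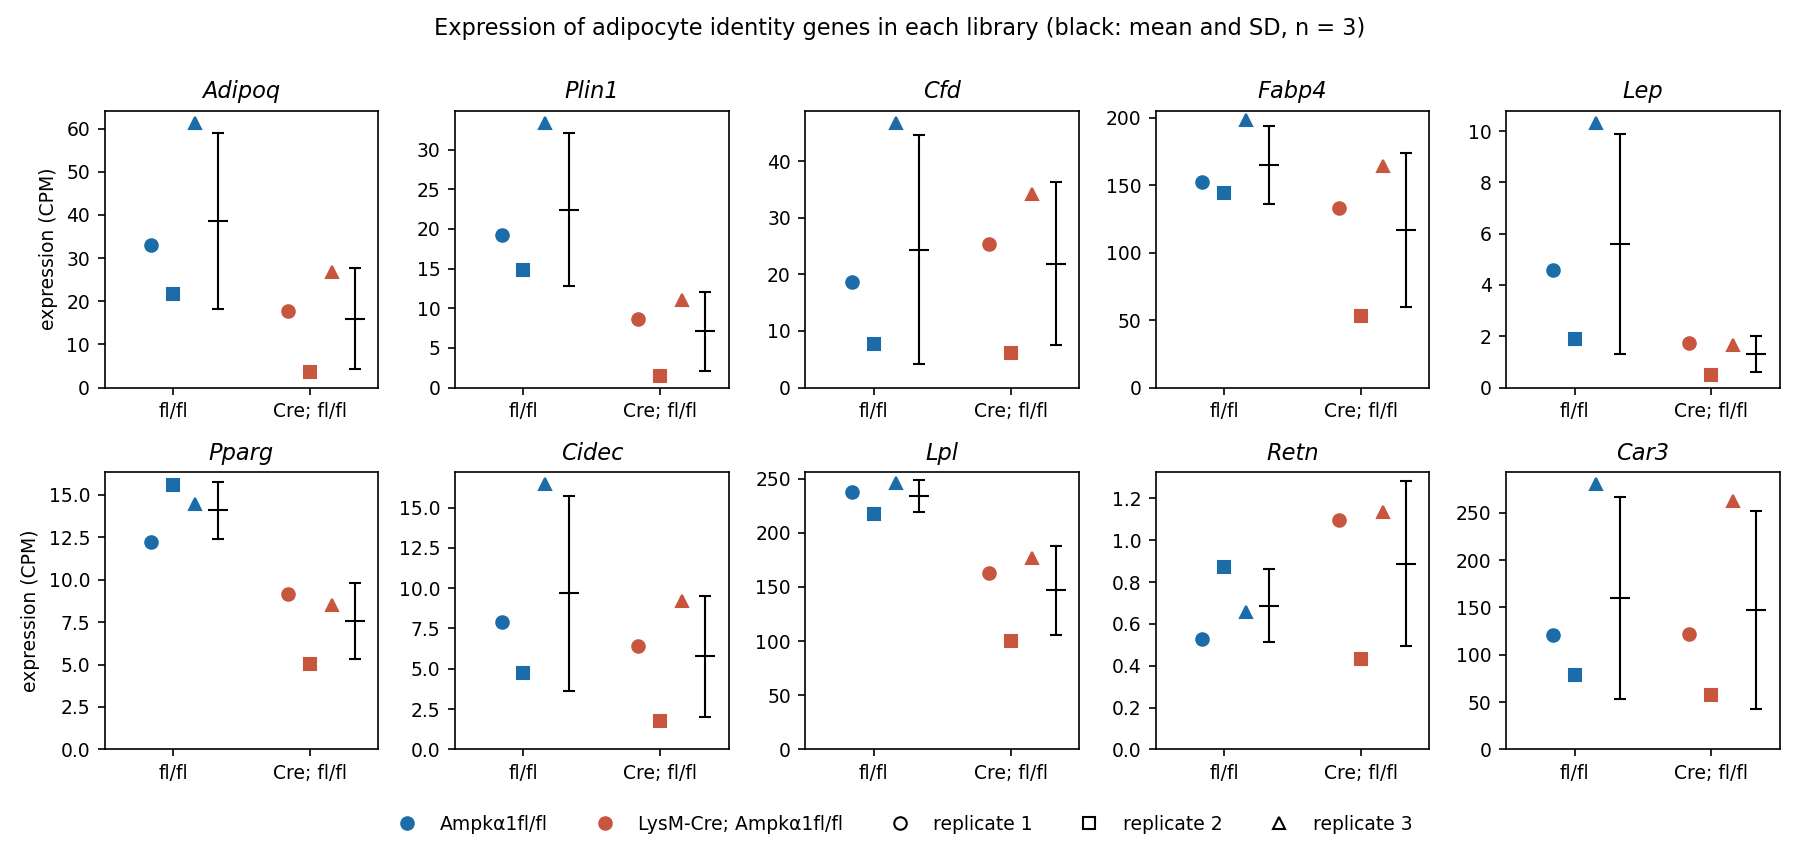
Expression of the 10 genes in each library, in CPM on a linear axis from 0, with 1 panel per gene. Circles, squares and triangles are replicates 1, 2 and 3, and black marks are the mean and SD of 3 mice. *Plin1*, *Lep*, *Pparg* and *Lpl* show no overlap between the groups, whereas the groups overlap widely for *Cfd* and *Car3*.

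All 10 genes were lowest in the same library, replicate 2 of the *LysM-Cre; Ampkα1fl/fl* group, which held the lowest value of 16.3% of all genes tested. Replicate 3 of the *Ampkα1fl/fl* group was the highest library for 8 of the 10, and for 17.9% of all genes. These libraries were singled out after the values were seen. Summed over the 6 genes regarded as restricted to adipocytes (*Adipoq*, *Plin1*, *Cfd*, *Lep*, *Cidec* and *Retn*), expression was 83.8, 51.7 and 169 CPM in *Ampkα1fl/fl* replicates 1 to 3, and 61.0, 13.7 and 84.1 CPM in *LysM-Cre; Ampkα1fl/fl* replicates 1 to 3. The sum was lower in the *LysM-Cre; Ampkα1fl/fl* mouse in 3 of 3 same-numbered pairs. The groups overlapped, and the range within each group exceeded the difference between the group means. Without replicate 2 of the *LysM-Cre; Ampkα1fl/fl* group the median log2 fold change of the members was -0.39, without replicate 3 of the *Ampkα1fl/fl* group it was -0.49, and 0 members were called by edgeR in either case.

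The promoter stretches of *Adipoq*, *Lep* and the adipocyte-selective start site of *Pparg* are shown because these genes carry the hormone output and the master regulator of the cell type. Each covers the 150 bases upstream of a RefSeq transcription start (GRCm38.p6, plus strand), and capitals mark a match to one of the searched motifs. The *Adipoq* stretch is chr16:23146386-23146535, the *Lep* stretch chr6:29060071-29060220 and the *Pparg* stretch chr6:115421916-115422065.
Adipoq: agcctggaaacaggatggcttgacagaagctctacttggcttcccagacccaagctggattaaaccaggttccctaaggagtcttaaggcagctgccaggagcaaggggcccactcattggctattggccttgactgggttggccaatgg
Lep: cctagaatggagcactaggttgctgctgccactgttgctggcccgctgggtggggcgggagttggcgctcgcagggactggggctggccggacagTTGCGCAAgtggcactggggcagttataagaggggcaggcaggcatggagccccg
Pparg: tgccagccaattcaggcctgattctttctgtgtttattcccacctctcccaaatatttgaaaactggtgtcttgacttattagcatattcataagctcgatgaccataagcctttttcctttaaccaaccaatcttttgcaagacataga
The searches were made on both strands of windows from 250 bases before to 50 bases after each start, which covered 10 windows of 7 members. A C/EBP palindrome, TTGCGCAA, was found in 1 window, that of *Lep*, beginning 55 bases upstream of the start, and in 0.183% of 32851 mouse promoter windows. The nuclear receptor core motif AGGTCA was in 2 windows, both at other *Pparg* starts that are not shown, and in 16.3% of all windows. Its direct repeat with 1 base between the copies (AGGTCANAGGTCA), which contains the core motif, was in 0 of the 10 and in 0.0396% of all windows. TATAAA was in 1 of the 10, another *Pparg* start, and in 13.6% of all windows. These are matches of letters only.

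Among the secreted factors, leptin and adiponectin had lower means in the *LysM-Cre; Ampkα1fl/fl* group and adipsin and resistin did not stand apart. *Lep* (chr6:29060221-29073876) encodes leptin, the hormone that signals the size of fat stores. It had 87, 35 and 188 reads in *Ampkα1fl/fl* replicates 1 to 3, which is 4.60, 1.91 and 10.3 CPM. In the *LysM-Cre; Ampkα1fl/fl* group it had 33, 9 and 31 reads, which is 1.72, 0.487 and 1.68 CPM. The lowest *Ampkα1fl/fl* library thus lay just above the highest *LysM-Cre; Ampkα1fl/fl* library, on few reads. The log2 fold change was -2.11 ± 0.69 (SE), or 4.31-fold lower, with an edgeR p of 0.0191 and an adjusted p of 0.223. This was the largest fold change among the 10 genes, and it was -1.33 without *Ampkα1fl/fl* replicate 3. DESeq2 gave an adjusted p of 0.0197, edgeR with the replicate block 0.067, and the exact two-sided permutation test over the 6 libraries p = 0.1, the smallest it allows with 3 mice against 3.

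*Adipoq* (chr16:23146536-23157968) encodes adiponectin, a hormone made almost exclusively by adipocytes that acts through AMPK in liver and muscle. Its values were 33.0, 21.6 and 61.3 CPM in *Ampkα1fl/fl* replicates 1 to 3 and 17.6, 3.52 and 26.9 CPM in *LysM-Cre; Ampkα1fl/fl* replicates 1 to 3. The groups overlapped, because *LysM-Cre; Ampkα1fl/fl* replicate 3 exceeded *Ampkα1fl/fl* replicate 2. The log2 fold change of -1.27 ± 0.67 (SE; 95% interval -2.87 to 0.33) had an edgeR adjusted p of 0.453. It was -0.77 without *Ampkα1fl/fl* replicate 3 and -0.80 without *LysM-Cre; Ampkα1fl/fl* replicate 2. Within same-numbered pairs the *LysM-Cre; Ampkα1fl/fl* library was the lower in 3 of 3, and the fit with the replicate block gave -1.47 with an unadjusted p of 0.0045 and an adjusted p of 0.121.

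*Cfd* (chr10:79890853-79892655) encodes adipsin, the complement protease factor D, for which fat is the main source in mice. It had 18.6, 7.76 and 46.8 CPM in the *Ampkα1fl/fl* libraries and 25.5, 6.06 and 34.2 CPM in the *LysM-Cre; Ampkα1fl/fl* libraries. These ranges overlapped widely, and the log2 fold change was -0.16 ± 0.76 (SE; edgeR adjusted p = 0.955). It turned to 0.73 without *Ampkα1fl/fl* replicate 3 and to 0.29 without *LysM-Cre; Ampkα1fl/fl* replicate 2. The interval of -1.95 to 1.64 leaves room for a difference of either sign. *Retn* (chr8:3655770-3659818), the gene for resistin, was close to the detection limit with 10, 16 and 12 reads against 21, 8 and 21 reads. It was the 1 member with a higher mean, at 0.687 ± 0.174 CPM and 0.888 ± 0.395 CPM (log2 fold change 0.37 ± 0.44 SE, edgeR adjusted p = 0.764), and the groups overlapped.

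Both lipid droplet genes had lower means, and the groups separated for *Plin1* only. *Plin1* (chr7:79721164-79732904) encodes perilipin 1, the coat protein that shields the adipocyte droplet from lipases until a hormonal signal arrives. It had 19.2, 14.8 and 33.3 CPM in the *Ampkα1fl/fl* libraries and 8.66, 1.51 and 11.1 CPM in the *LysM-Cre; Ampkα1fl/fl* libraries. All *LysM-Cre; Ampkα1fl/fl* values lay below all *Ampkα1fl/fl* values. The difference was 3.17-fold (log2 fold change -1.66 ± 0.63 SE; edgeR p = 0.0344, adjusted p = 0.293), and the exact permutation test gave p = 0.1. The adjusted p was 0.344 by DESeq2 and 0.114 with the replicate block in edgeR.

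*Cidec* (chr6:113424634-113435760) encodes the protein that fuses small droplets into the single large one. Its values of 7.88, 4.75 and 16.5 CPM in *Ampkα1fl/fl* mice and 6.41, 1.73 and 9.19 CPM in *LysM-Cre; Ampkα1fl/fl* mice overlapped. The log2 fold change was -0.75 ± 0.64 (SE; edgeR adjusted p = 0.657, and 0.183 with the replicate block). It was -0.13 without *Ampkα1fl/fl* replicate 3, -0.31 without *LysM-Cre; Ampkα1fl/fl* replicate 2 and -1.25 without its replicate 3. The gene overlaps the predicted gene *Gm52871* in the annotation, and how the authors' estimates divided reads between them was not tested.

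Of the fatty acid genes, *Lpl* separated the groups and *Fabp4* did not. *Lpl* (chr8:68880555-68906932) encodes lipoprotein lipase, which frees fatty acids from circulating lipoproteins at the capillary wall and is also made by muscle and macrophages. It had 238, 217 and 246 CPM in the *Ampkα1fl/fl* group against 163, 100.3 and 177 CPM in the *LysM-Cre; Ampkα1fl/fl* group. The groups did not overlap, and the 3 *Ampkα1fl/fl* libraries were close together. The difference was 1.59-fold (log2 fold change -0.67 ± 0.20 SE; edgeR p = 0.0125, adjusted p = 0.187), and the exact permutation test gave p = 0.1. The adjusted p was 0.00506 by DESeq2 and 0.106 by edgeR with the replicate block.

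*Fabp4* (chr3:10204342-10208616) encodes the fatty acid carrier of the adipocyte cytosol, which capillary endothelium and macrophages also make. It had 152, 144 and 198 CPM in the *Ampkα1fl/fl* libraries and 133, 53.1 and 164 CPM in the *LysM-Cre; Ampkα1fl/fl* libraries. The groups overlapped, and the low mean of the *LysM-Cre; Ampkα1fl/fl* group came with 1 low library, replicate 2. The log2 fold change was -0.50 ± 0.38 (SE; edgeR adjusted p = 0.607), -0.15 without that library and -0.83 without replicate 3 of the same group.

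*Pparg* (chr6:115360879-115490404), the gene for the nuclear receptor PPARγ that drives adipocyte differentiation, separated the groups. Its values were 12.2, 15.6 and 14.5 CPM in the *Ampkα1fl/fl* group and 9.18, 5.03 and 8.49 CPM in the *LysM-Cre; Ampkα1fl/fl* group, without overlap. The difference was 1.86-fold (log2 fold change -0.90 ± 0.23 SE; 95% interval -1.44 to -0.35). It had the lowest edgeR p of the 10 genes, 0.0061, with an adjusted p of 0.142, while DESeq2 gave an adjusted p of 0.0102 and edgeR with the replicate block 0.163. The exact permutation test gave p = 0.1.

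*Pparg* has several start sites, and the start shown above belongs to the transcript of PPARγ2, the isoform largely restricted to adipocytes. The authors' estimates gave this transcript 45.3, 28.4 and 81.3 reads in the *Ampkα1fl/fl* libraries and 27.5, 7.13 and 21.0 reads in the *LysM-Cre; Ampkα1fl/fl* libraries. All *LysM-Cre; Ampkα1fl/fl* values again lay below all *Ampkα1fl/fl* values, by a narrow margin. On the TPM scale, which corrects for transcript length, it made up 21.0%, 10.9% and 32.2% of the *Pparg* transcripts in *Ampkα1fl/fl* replicates 1 to 3 and 17.6%, 8.70% and 14.2% in *LysM-Cre; Ampkα1fl/fl* replicates 1 to 3. These shares overlapped between the groups. The other *Pparg* transcripts, which macrophages and other cells can use, had 12.5, 17.1 and 13.1 TPM against 9.20, 5.77 and 9.26 TPM, without overlap. As estimated, the separation was present in both classes, but the division of reads between transcripts is uncertain. For 1 of the other transcripts the estimates were 90.6, 119 and 106 reads in *Ampkα1fl/fl* libraries. They were 0, 10.3 and 95.1 reads in *LysM-Cre; Ampkα1fl/fl* libraries.

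*Car3* (chr3:14863538-14872381) encodes carbonic anhydrase 3, abundant in adipocytes and in slow skeletal muscle fibres. It had 121, 78.8 and 281 CPM in the *Ampkα1fl/fl* libraries and 122, 57.6 and 263 CPM in the *LysM-Cre; Ampkα1fl/fl* libraries. The groups covered nearly the same range, with the largest gap between same-numbered mice in pair 2, and the log2 fold change was -0.12 ± 0.63 (SE; edgeR adjusted p = 0.958). It turned to 0.56 without *Ampkα1fl/fl* replicate 3, to 0.26 without *LysM-Cre; Ampkα1fl/fl* replicate 2 and to 0.00 without its replicate 1. *Car3* overlaps the predicted gene *Gm41999* in the annotation.

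**Figure D2:**
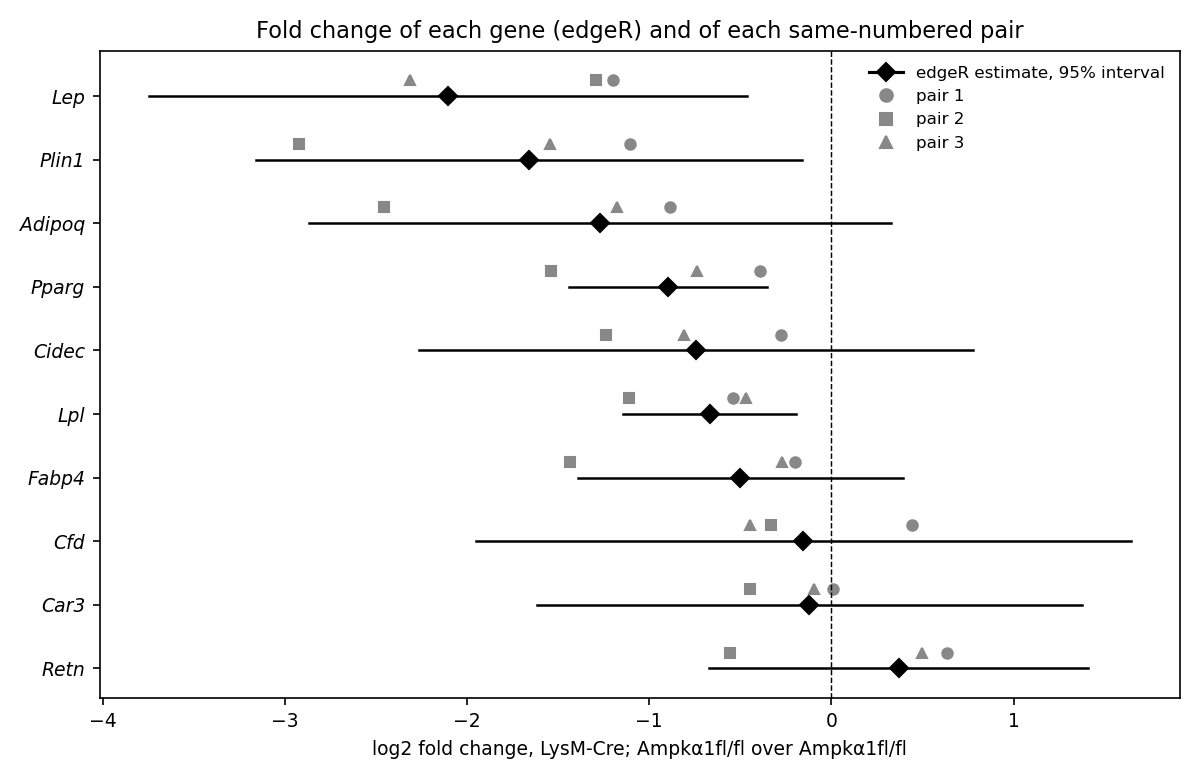
Log2 fold change of each gene, *LysM-Cre; Ampkα1fl/fl* over *Ampkα1fl/fl*. Diamonds and bars are the edgeR estimate with its 95% interval, and grey symbols are the log2 ratios within same-numbered pairs (CPM with 0.5 added). The bars of *Lep*, *Plin1*, *Pparg* and *Lpl* lie below 0, and 7 of the 10 genes are below 0 in all 3 pairs.

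In same-numbered pairs, 7 of the 10 genes were lower in the *LysM-Cre; Ampkα1fl/fl* mouse in 3 of 3 pairs, as were 19.5% of all genes. The 7 were *Adipoq*, *Plin1*, *Fabp4*, *Lep*, *Pparg*, *Cidec* and *Lpl*, and the exceptions were *Cfd*, *Car3* and *Retn*.

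Each gene's level was also set against that of *Adipoq* in the same library. This comparison was chosen after the values were seen, and such a ratio does not move where both genes differ by the same factor. For *Cfd* the ratio of CPM values was 0.563, 0.360 and 0.764 in the *Ampkα1fl/fl* libraries and 1.44, 1.72 and 1.27 in the *LysM-Cre; Ampkα1fl/fl* libraries. The groups did not overlap, although they did for *Cfd* by itself. The geometric mean ratio was 2.74 times higher in the *LysM-Cre; Ampkα1fl/fl* group.

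The same direction without overlap was found for *Cidec* (1.63 times), *Car3* (2.62 times) and *Retn* (3.59 times), so that 4 of 9 members were higher relative to *Adipoq*, beside 13.1% of all genes. *Plin1* went the other way, with ratios of 0.582, 0.686 and 0.544 in *Ampkα1fl/fl* mice and 0.491, 0.431 and 0.413 in *LysM-Cre; Ampkα1fl/fl* mice, 1.36 times lower. Only 4 of all genes, or 0.0281%, were lower relative to *Adipoq* without overlap, and *Plin1* was among them. The ratios of *Fabp4*, *Lep*, *Pparg* and *Lpl* overlapped. The exact permutation test gave p = 0.1 for each of the 5 ratios without overlap, the smallest possible value. No ratio could therefore pass a threshold of 0.05 or an adjustment over the 9 ratios. *Adipoq* itself had a log2 fold change of -1.27, so the ratio of a gene that differed less moves up. The members also varied together over the libraries, to different degrees, so the share over all genes is not a like measure for them. Of all 45 pairs of members 21 had ratios without overlap, and only ratios to *Adipoq* are given here.

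**Figure D3:**
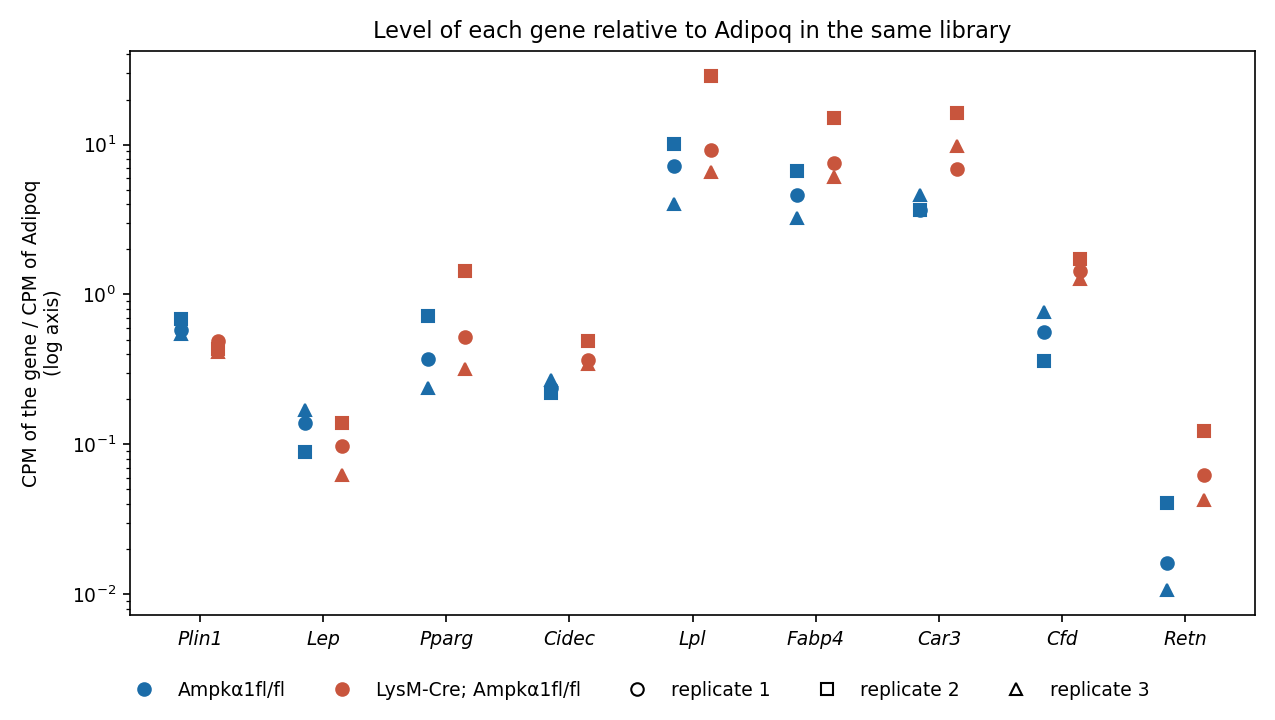
CPM of each gene divided by CPM of *Adipoq* in the same library, on a log axis, for 9 genes ordered by the change between groups. The *LysM-Cre; Ampkα1fl/fl* points of *Cidec*, *Car3*, *Cfd* and *Retn* lie above all *Ampkα1fl/fl* points, and those of *Plin1* lie below them.

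Per length and by mean over the 6 libraries, *Fabp4* was the most abundant of the 10 genes and *Lep* the least, although *Lep* exceeded *Retn* in *Ampkα1fl/fl* replicate 3. *Fabp4* had 787 ± 267 TPM (SD over 6 libraries), *Car3* 252 ± 155 TPM, *Lpl* 101 ± 29.2 TPM, *Cfd* 77.3 ± 52.9 TPM and *Adipoq* 59.8 ± 43.1 TPM. The lower end of the order was *Plin1* with 18.9 ± 14.1 TPM, *Pparg* with 13.8 ± 5.19 TPM, *Cidec* with 11.0 ± 7.19 TPM, *Retn* with 6.09 ± 2.24 TPM and *Lep* with 2.35 ± 2.49 TPM. The ranges of all neighbours in this order overlapped. The order also differed between the groups, since *Adipoq* was above *Cfd* in *Ampkα1fl/fl* mice (84.9 ± 46.2 and 81.9 ± 69.0 TPM) and below it in *LysM-Cre; Ampkα1fl/fl* mice (34.7 ± 25.0 and 72.8 ± 46.6 TPM). Over both groups *Fabp4* exceeded *Car3*, *Car3* exceeded *Lpl*, and *Adipoq* exceeded *Plin1* in 6 of 6 libraries, whereas *Lpl* exceeded *Cfd*, and *Cfd* exceeded *Adipoq*, in 4 of 6.

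**Figure D4:**
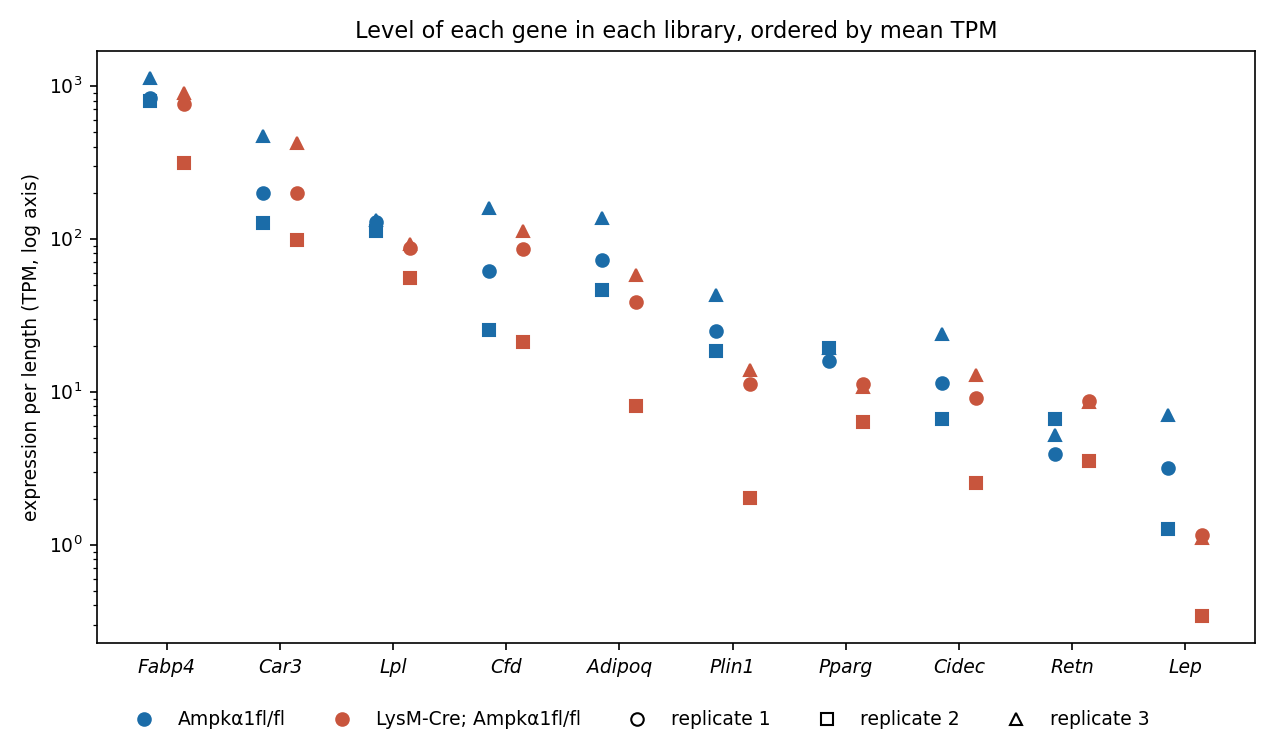
Level of each gene in each library in TPM on a log axis, ordered by the mean over 6 libraries. The values of *Fabp4* run from 312 to 1128 TPM and those of *Lep* from 0.34 to 7.05 TPM, with the square of *LysM-Cre; Ampkα1fl/fl* replicate 2 the lowest point of each gene.

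Over the 6 libraries the adipocyte genes varied together, though to different degrees. Against the mean of the standardised log2 CPM of the 6 restricted genes, Pearson's r over 6 libraries was 0.989 for *Cidec*, 0.977 for *Fabp4*, 0.976 for *Adipoq*, 0.936 for *Plin1* and 0.877 for *Cfd*. It was 0.872 for *Lep*, 0.868 for *Car3*, 0.862 for *Lpl*, 0.749 for *Pparg* and 0.498 for *Retn*. The 6 restricted genes enter the mean themselves, and all points share the group difference and the low library. Among other genes, the highest r were those of *Pck1* (0.996), which encodes the enzyme for making glycerol phosphate in fat, *Lipe* (0.990), the hormone-sensitive lipase, *Tnk2* (0.990), *Lgals12* (0.981), *Eps8l1* (0.979), *Rnf10* (0.978), *Gpd1* (0.978), *Klb* (0.977), *Car4* (0.973) and *Vps72* (0.973). *Pck1* followed the pattern with 9.89, 5.14 and 27.8 CPM in *Ampkα1fl/fl* mice and 10.4, 0.703 and 13.8 CPM in *LysM-Cre; Ampkα1fl/fl* mice. The median r was 0.888 over 11 lipid droplet and lipolysis genes and 0.872 over 10 further adipocyte-enriched genes. It was 0.601 over 7 red cell markers, 0.32 over 17 skeletal muscle markers, 0.0732 over 13 adipocyte progenitor genes and 0.0435 over all genes. These correlations are descriptions over 6 libraries, and *Tnk2*, *Rnf10* and *Vps72* vary little in level.

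Of 12 further adipocyte-enriched genes 10 could be tested, and 10 of 10 had a lower mean in the *LysM-Cre; Ampkα1fl/fl* group, with 1 called. The median log2 fold change was -0.82, and -0.51 without *Ampkα1fl/fl* replicate 3. The 1 gene called was *Aoc3*, the amine oxidase on the adipocyte surface that smooth muscle also carries, at 192 ± 5.50 CPM in *Ampkα1fl/fl* mice and 118 ± 12.7 CPM in *LysM-Cre; Ampkα1fl/fl* mice (log2 fold change -0.71 ± 0.085 SE; edgeR adjusted p = 0.023, and 0.0528 with the replicate block). The largest differences were those of *Pnpla3*, a lipid droplet acyl hydrolase (-1.39, adjusted p = 0.142), *Hcar1*, the lactate receptor that restrains lipolysis (-1.27, adjusted p = 0.170), *Adig*, adipogenin (-1.04, adjusted p = 0.494), and *Slc7a10*, an amino acid transporter (-0.94, adjusted p = 0.268). Of the 10, 5 were lower at an unadjusted edgeR p under 0.05. The shares over all genes tested are given here for this list and for those below. A log2 fold change below 0 was found for 50.6% of all genes, and edgeR called 0.898% (0.568% lower). At an unadjusted edgeR p under 0.05, 8.55% of all genes were lower and 5.97% higher. DESeq2 called 4.82% of all genes (2.67% lower). *Adrb3* and *Ffar4* had too few reads for the test.

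The progenitor genes mark the fibroblasts that give rise to adipocytes and are shared with other connective tissue fibroblasts. They gave the most calls among the adipocyte-related lists. All 13 of 13 had a lower mean, where 50.6% of all genes had a log2 fold change below 0. The median log2 fold change was -0.53 (-0.35 with a muscle score of each library in the model, the muscle covariate). EdgeR called 2, both lower, against 0.568% of all genes. At an unadjusted edgeR p under 0.05, 9 of the 13 were lower, against 8.55% of all genes. DESeq2 called 7, all lower, against 2.67% of all genes. *Dpp4*, a marker of early interstitial progenitors, fell from 26.6 ± 1.60 to 15.7 ± 0.648 CPM (log2 fold change -0.76 ± 0.078 SE; edgeR adjusted p = 0.0148, and 0.0466 with the replicate block). *Cd55*, which encodes a complement inhibitor found on the same cells, fell from 65.9 ± 2.09 to 45.6 ± 3.08 CPM (-0.53 ± 0.065 SE; adjusted p = 0.023, and 0.0533 with the block). *Gdf10*, a TGF-β family ligand, had -1.17 with an adjusted p of 0.0526, and 0.0201 with the block. *Fgf10*, a growth factor for preadipocytes, had -1.24 (adjusted p = 0.0824) and *Pi16* -1.02 (adjusted p = 0.0851). The median r of the 13 with the mean of the restricted adipocyte genes was 0.0732 (-0.685 to 0.893), beside 0.0435 over all genes. As a set they did not follow the adipocyte genes across the libraries.

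Among 14 adipogenic transcription factors 8 were higher and 6 lower, with a median of 0.01. At an unadjusted edgeR p under 0.05, 2 were lower and 0 higher. DESeq2 called 2, *Srebf1* and *Cebpa*, both lower. *Srebf1*, the regulator of fatty acid synthesis, was called lower, at 70.4 ± 0.288 and 53.4 ± 3.22 CPM (log2 fold change -0.40 ± 0.059 SE; edgeR adjusted p = 0.0412, and 0.0816 with the replicate block). *Cebpa*, the partner of *Pparg* in mature fat cells, had -0.59 (adjusted p = 0.0914), *Ebf2* -0.39 (adjusted p = 0.498) and *Mlxipl* 0.35 (adjusted p = 0.882). The genes of triglyceride synthesis and lipogenesis had lower means in 14 of 16 cases, with a median of -0.34 (-0.14 without *Ampkα1fl/fl* replicate 3 and -0.56 with the muscle covariate), 0 calls by edgeR, 5 genes lower at an unadjusted p under 0.05 and 5 calls by DESeq2. They were led by *Scd1*, the stearoyl-CoA desaturase (-1.15, adjusted p = 0.0794), *Gpd1*, glycerol-3-phosphate dehydrogenase (-0.91, adjusted p = 0.528), *Pck1* (-0.78, adjusted p = 0.768) and *Elovl6*, a fatty acid elongase (-0.72, adjusted p = 0.416).

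Lipid handling genes with a wider tissue range did not share one direction. Among 12 tested genes of fatty acid capture and uptake 8 were higher and 4 lower, with a median of 0.16 that was 0.045 without *LysM-Cre; Ampkα1fl/fl* replicate 3 and -0.12 with the muscle covariate. *Angptl4*, whose secreted product inhibits lipoprotein lipase, was the 1 gene called, and it rose from 56.5 ± 3.65 to 127 ± 33.7 CPM (log2 fold change 1.17 ± 0.18 SE; edgeR adjusted p = 0.045, and 0.0634 with the replicate block). *Fabp3*, the carrier of muscle, had 2.15 (adjusted p = 0.296), *Acsl1* -0.47 (adjusted p = 0.650) and *Cav1*, caveolin 1, -0.30 (adjusted p = 0.0851).

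In the lipid droplet and lipolysis list 4 of 11 tested genes were higher and 7 lower, with a median of -0.06 that was 0.10 without *Ampkα1fl/fl* replicate 3 and 0.022 without *LysM-Cre; Ampkα1fl/fl* replicate 2. EdgeR called 0 of them, with 2 at an unadjusted p under 0.05, and DESeq2 called 1. *Fitm1*, a droplet gene of muscle, had 2.06 (adjusted p = 0.467), *G0s2*, an inhibitor of adipocyte lipase, -0.94 (adjusted p = 0.204), *Lipe* -0.52 (adjusted p = 0.531) and *Plin4* -0.41 (adjusted p = 0.859).

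Adipokine receptor and insulin response genes were higher in 7 of 11 cases (median 0.09), with 0 calls by edgeR, 2 genes at an unadjusted p under 0.05 and 1 call by DESeq2. *Slc2a4*, the insulin-regulated glucose transporter, had 0.60 (adjusted p = 0.671), *Irs1* 0.36 (adjusted p = 0.0869), the leptin receptor gene *Lepr* -0.29 (adjusted p = 0.361) and *Cdh13*, which encodes a receptor for adiponectin, 0.16 (adjusted p = 0.383). Of 12 brown and beige fat genes only 8 could be tested, and the thermogenic markers *Ucp1*, *Cidea*, *Elovl3* and *Otop1* had too few reads. Of the 8, 5 were higher and 3 lower (median 0.55), with 0 calls by edgeR and by DESeq2 and 2 genes, both lower, at an unadjusted edgeR p under 0.05. The median was 0.025 over the genes with at least 10 reads in every library, -0.068 without *LysM-Cre; Ampkα1fl/fl* replicate 3, 1.09 without *Ampkα1fl/fl* replicate 3 and -0.23 with the muscle covariate. The genes with the largest differences were *Cox8b* (1.79, adjusted p = 0.390), *Cpt1b* (1.70, adjusted p = 0.347) and *Cox7a1* (0.92, adjusted p = 0.747), which striated muscle also expresses, and the potassium channel gene *Kcnk3* (-0.83, adjusted p = 0.321).

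**Figure D5:**
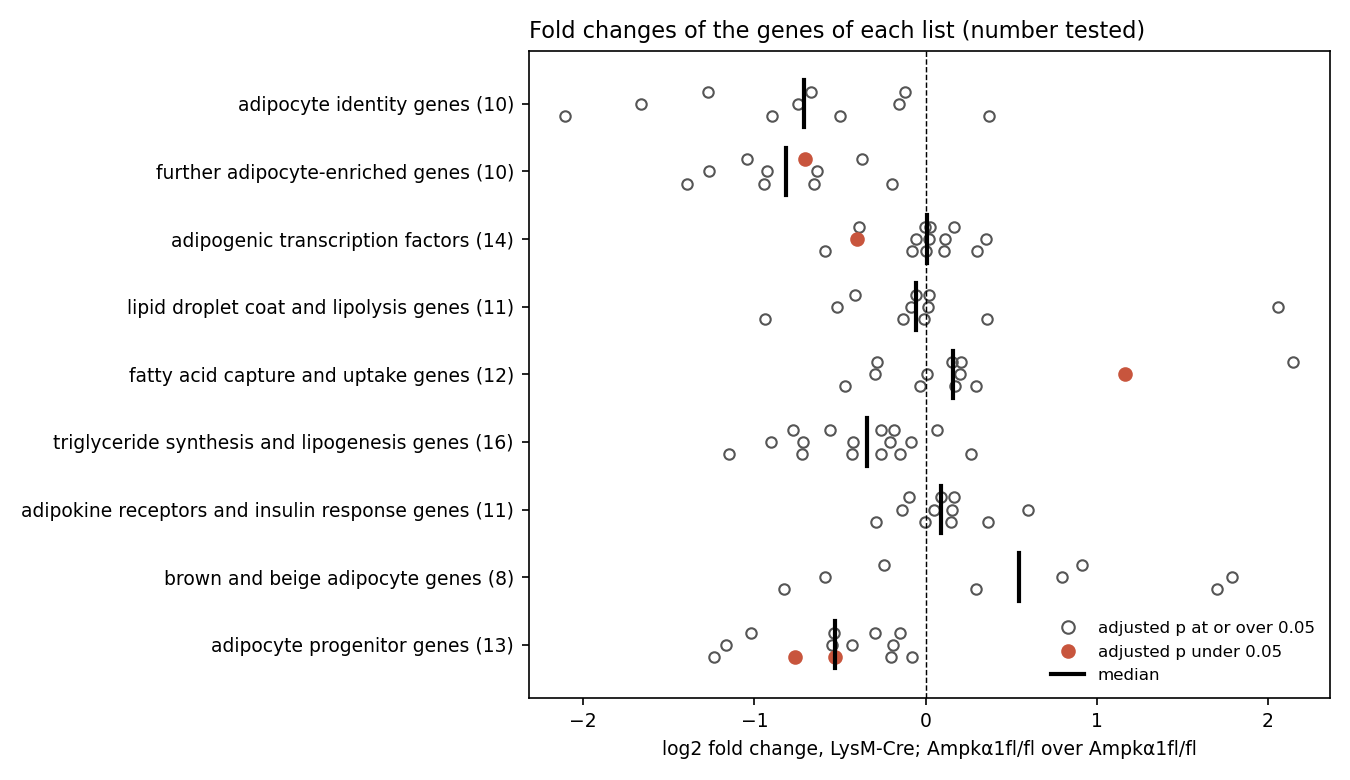
Log2 fold change, *LysM-Cre; Ampkα1fl/fl* over *Ampkα1fl/fl*, of the tested genes of each list, with the number tested in parentheses. Each circle is a gene, filled where the edgeR adjusted p is under 0.05, and bars are medians. The further adipocyte-enriched genes and the progenitor genes lie below 0 throughout, whereas the transcription factors centre at 0.01.

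The 5 calls in these lists were not kept in every fit with 1 mouse left out, and calls over the whole table moved as well. Without any 1 of the *Ampkα1fl/fl* mice, or without replicate 1 of the *LysM-Cre; Ampkα1fl/fl* group, edgeR called 0 of the listed genes. These fits called between 8 and 24 genes over the whole table, against 128 with all mice, so the loss was not particular to the lists. Without replicate 2 of the *LysM-Cre; Ampkα1fl/fl* group 9 were called (276 over the whole table), among them *Aoc3*, *Dpp4*, *Cd55*, *Angptl4* and *Srebf1*. Without replicate 3 of that group *Aoc3* and *Dpp4* were called (60 over the whole table). With the replicate block 2 listed genes were called, *Dpp4* and *Gdf10*. The log2 fold change of each of the 5 genes kept its sign in all 6 fits with 1 mouse left out, and it ran from -0.75 to -0.62 for *Aoc3* and from 0.94 to 1.33 for *Angptl4* over all 14 alternatives.

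Markers of other tissues differed between the libraries beside these results. All 17 of 17 skeletal muscle markers had a higher mean in the *LysM-Cre; Ampkα1fl/fl* group (median log2 fold change 1.80, 0 called by edgeR or DESeq2). At an unadjusted edgeR p under 0.05 there were 0, and 17 with the replicate block. In the block fit 15.9% of all genes reached that level in either direction. The summed level of the muscle markers was 233, 711 and 3874 CPM in *Ampkα1fl/fl* replicates 1 to 3 and 4196, 1311 and 11340 CPM in *LysM-Cre; Ampkα1fl/fl* replicates 1 to 3. The summed muscle markers and the summed restricted adipocyte genes were both highest in replicate 3 of each group. Between replicates 1 and 2 the 2 sums ran in opposite order in the *Ampkα1fl/fl* group and in the same order in the *LysM-Cre; Ampkα1fl/fl* group. When the muscle score of each library was added to the model, the log2 fold change was -2.36 for *Adipoq*, -2.60 for *Plin1*, -2.89 for *Lep*, -1.75 for *Cidec*, -1.27 for *Cfd*, -1.22 for *Car3*, -1.17 for *Pparg*, -1.13 for *Fabp4*, -0.93 for *Lpl* and -0.090 for *Retn*. EdgeR called 0 members in that fit and found 8, all lower, at an unadjusted p under 0.05, against 6.46% of all genes. Each of the 10 estimates was lower than without the score. Because the muscle markers had higher means in the *LysM-Cre; Ampkα1fl/fl* group, this fit cannot fully separate the score from genotype with 6 libraries. Its estimates therefore do not show a larger difference.

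Macrophage markers, which bear on *Lpl*, *Fabp4* and *Pparg*, were lower in 8 of 11 cases (median -0.26, 0 called by edgeR and 4 called by DESeq2). At an unadjusted edgeR p under 0.05, 6 were lower and 1 higher, against 8.55% and 5.97% of all genes. The sum of the macrophage markers was between 1144 and 1190 CPM in *Ampkα1fl/fl* libraries and between 737 and 956 CPM in *LysM-Cre; Ampkα1fl/fl* libraries. Endothelial markers were lower in 10 of 10 cases (median -0.13, 0 called by edgeR, 3 at an unadjusted p under 0.05 and 2 called by DESeq2), with sums between 1024 and 1088 CPM and between 947 and 970.1 CPM. Neither range overlapped between the groups, and the part of these cells in the levels of *Lpl*, *Fabp4* and *Pparg* was not tested.

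Red cell genes were lower in 7 of 7 cases, with 6 called and summed levels of 1997 to 2973 CPM against 676 to 983 CPM. Of all genes tested, 0.568% were called lower. Tendon fibroblast markers were higher in 5 of 10 cases and lower in 5, with a median of 0.04, and *Dcn* was called lower. Schwann cell markers summed to 1297, 138 and 6720 CPM in *Ampkα1fl/fl* replicates 1 to 3 and to 2871, 2020 and 732 CPM in *LysM-Cre; Ampkα1fl/fl* replicates 1 to 3. Keratinocyte markers summed to between 19.3 and 39.9 CPM and between 6.05 and 82.2 CPM. No marker of these lists was at 0 in every library, and the part of differences in tissue sampled in the adipocyte values was not tested.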

How the data were processed

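RNA sequencing of injured Achilles tendon was analysed for 3 *LysM-Cre; Ampkα1fl/fl* and 3 *Ampkα1fl/fl* mice. Groups and replicate numbers came from the sample labels, and the genotype of the littermates, the neonatal age and the time point came from the paper. For each of 65053 transcripts the deposited file gives the authors' estimated count, not normalized, and TPM values scaled to transcript length and library total. The submitters' processing notes name GRCm38.p6, and the aligner and counting tool are not given in the sources used here. A further 20 value columns (FPKM, normalized counts and averages) were not used.

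Estimated counts were summed per gene and rounded (18099 genes, of which 18049 were matched to a symbol by NCBI Gene identifier). Totals were between 18076805 and 19479887 reads. Counts were tested with edgeR 4.0.16 under R 4.3.3 (quasi-likelihood F test after TMM scaling and filterByExpr, Benjamini-Hochberg adjustment, threshold 0.05) on 14261 genes, after a check on simulated counts. Single genes also had an exact two-sided permutation test of log2(CPM + 0.5). P-values measure the spread between 3 mice per group. The alternatives were DESeq2 1.42.0, limma 3.58.1 on log2(TPM + 0.1), scaling by RLE or by the upper quartile, testing unfiltered genes or only genes with at least 10 reads in every library, pairing by replicate number (the replicate block), adding a muscle score of each library (mean log2 CPM of the muscle markers) as a covariate, and dropping each mouse in turn.

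The labels give both groups the same replicate numbers. They do not state that same-numbered mice were matched. The deviations of same-numbered libraries from their group means correlated at 0.184, 0.118 and 0.31 over genes, and paired and block values are given as an alternative. *Ampkα1fl/fl* replicate 1 correlated more with *LysM-Cre; Ampkα1fl/fl* replicate 2 (0.501), and *Ampkα1fl/fl* replicate 2 slightly more with *LysM-Cre; Ampkα1fl/fl* replicate 3 (0.127). The pairing is thus not established.

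The members and gene lists were chosen with earlier results of these data known, and the ratios to *Adipoq* after the values were seen. All members were named, with up to 4 genes of each list with the largest absolute log2 fold change, every gene called, and the 10 genes with the highest r. Marker genes of other tissues were reported by list. Promoter sequences came from the RefSeq tables of GRCm38.p6 for 7 of the 10 members. *Fabp4*, *Lpl* and *Car3* had no entry.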

Additional observations from a re-analysis of the deposited data

How the results depend on the processing

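EdgeR called 0 of the 10 members in the fits with RLE and upper-quartile scaling, with no filter, with at least 10 reads in every library (where *Lep* and *Retn* gave no value), with the replicate block, with the muscle covariate, with each mouse left out, and by limma, whereas DESeq2 called 3 (*Lep* -2.11, *Pparg* -0.89 and *Lpl* -0.66). The count over the whole table, 128, was 688 by DESeq2, 47 with the replicate block, 73 with the muscle covariate, 61 by limma and between 8 and 276 with 1 mouse left out. The count over the programme lists, 5, was 22, 2, 2 and 1 in the same order and between 0 and 9 with 1 mouse left out. The replicate block changed no call among the members. The median of the members stayed between -0.91 and -0.39 with 1 mouse left out. Signs turned for *Retn* with the muscle covariate (-0.090), for *Cfd* without *Ampkα1fl/fl* replicate 3 (0.73) or *LysM-Cre; Ampkα1fl/fl* replicate 2 (0.29), and for *Car3* without *Ampkα1fl/fl* replicate 3 (0.56), *LysM-Cre; Ampkα1fl/fl* replicate 2 (0.26) or its replicate 1 (0.000716). With 1 mouse left out *Cfd* ran from -0.63 to 0.73 and *Car3* from -0.84 to 0.56, and the cause was not tested. Of the 10 co-varying genes, 4 were also among the 10 highest with *Adipoq* alone, and 4 of the 10 ranks by TPM were kept by CPM. Differences in *Lep* and *Retn*, with 9 and 8 reads in their lowest library, are limited by depth.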
